A study of Arabidopsis thaliana with 12 samples.

Results

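The glutathione transferase (GST) family was taken as every row of the deposited count table whose gene name, in any letter case, is an optional AT prefix, GST, a class letter and a number. The rule found 48 of 33597 named genes, of which 27 are tau (U), 13 phi (F), 3 lambda (L), 3 theta (T) and 2 zeta (Z) class. The tau gene ERD9, also called GSTU17, carries no GST name in the table and is not a member. The RNA came from Arabidopsis thaliana rosette leaves, the third and the fourth of each plant. The leaves fell into 4 groups, with 3 independent biological replicates each. OX NaCl and OX mock leaves came from ERF34-OX#1, a single line of the Columbia-0 (Col) background that carries the ERF34 coding sequence behind the CsVMV promoter with an N-terminal GFP tag. Col NaCl and Col mock leaves came from wild-type Col plants. NaCl leaves were detached at 16 DAE, the labels' unit of leaf age, and kept for 1 day at 22°C afloat on a 100 mM NaCl solution, buffered to pH 5.8 with 3 mM MES, under 16 h of light and 8 h of dark. Labels of mock leaves carry the same age of 16 DAE, buffer, temperature and light cycle, but no NaCl level or treatment day. Whether mock leaves were detached and floated, and for how long, is not given in the sources used here. An effect of salt and one of detaching and floating the leaf therefore cannot be told apart. The series title places the study in salt-induced leaf senescence and names ERF34, an AP2/ERF transcription factor, as a negative regulator of it.

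Glutathione transferases join the thiol of glutathione to electrophilic compounds, which are then moved into the vacuole and broken down. Tau and phi enzymes are plant classes that act on herbicides, other xenobiotics and stress metabolites, and several also carry small molecules without conjugating them. Lambda enzymes have a cysteine in the active site and act as thiol transferases, theta enzymes have glutathione peroxidase activity, and zeta enzymes act in tyrosine breakdown as maleylacetoacetate isomerases. Many tau and phi genes are induced by chemicals, pathogens and salt.

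The totals of named genes ranged from 10425430 to 12704898 counts in OX libraries and from 14301312 to 18398594 in Col libraries, so that every OX library was shallower than every Col library. ERF34 (listed as AT2G44940) checked the genotype: it averaged 934 ± 144 CPM in OX NaCl, 1051 ± 46.0 in OX mock, 13.0 ± 6.14 in Col NaCl and 8.82 ± 5.52 in Col mock leaves (SD, n = 3 each). CPM here are read counts scaled to library totals after TMM normalization. Summed leaf mesophyll markers (RBCS1A, LHCB1.3, RCA, CA1) ranged from 13430 to 16284 CPM in OX NaCl, 16696 to 17378 in OX mock, 10648 to 12590 in Col NaCl and 16416 to 18176 in Col mock leaves. Root markers (PYK10, WOX5, CASP1) summed to at most 6.25 CPM and WOX5 had no count, and flower markers (PI, AP3, AG) summed to at most 3.25 CPM, although PI was called higher with salt in the overexpressor (log2 4.70, adjusted p = 0.0406). Markers of phloem, guard cells and epidermis (SUC2, SEOR1, MYB60, ATML1) summed to 467 to 585 CPM in OX NaCl, 687 to 731 in OX mock, 495 to 539 in Col NaCl and 710 to 805 in Col mock leaves.

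Summed over its members, the family took a larger share of counts in salted wild-type leaves than in the other leaves. Abundant members weigh most in this sum. In Col NaCl and Col mock leaves GSTF2 averaged 1557 and 574 CPM, GSTF6 1093 and 414, and GSTF7 591 and 301. The sum therefore does not describe each member. All 48 members together held 0.487 ± 0.033% of counts in OX NaCl, 0.487 ± 0.0411% in OX mock, 0.724 ± 0.107% in Col NaCl and 0.458 ± 0.086% in Col mock leaves (SD, n = 3 each). The 3 Col NaCl libraries, at 0.654%, 0.847% and 0.672%, lay above all 9 others, the highest of which was Col mock replicate 2 at 0.556%. Phi genes held most of it, with 0.305 ± 0.0396% in OX NaCl, 0.311 ± 0.0419% in OX mock, 0.5 ± 0.106% in Col NaCl and 0.28 ± 0.0815% in Col mock leaves. Tau genes held 0.132 ± 0.0182% in OX NaCl, 0.113 ± 0.00139% in OX mock, 0.171 ± 0.0126% in Col NaCl and 0.112 ± 0.0051% in Col mock leaves. Lambda genes took less in salt in both genotypes, 0.0339 ± 0.00151% in OX NaCl against 0.0443 ± 0.000577% in OX mock, and 0.0319 ± 0.00108% in Col NaCl against 0.0477 ± 0.00281% in Col mock leaves. No test was run on these shares.

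**Figure D1:**
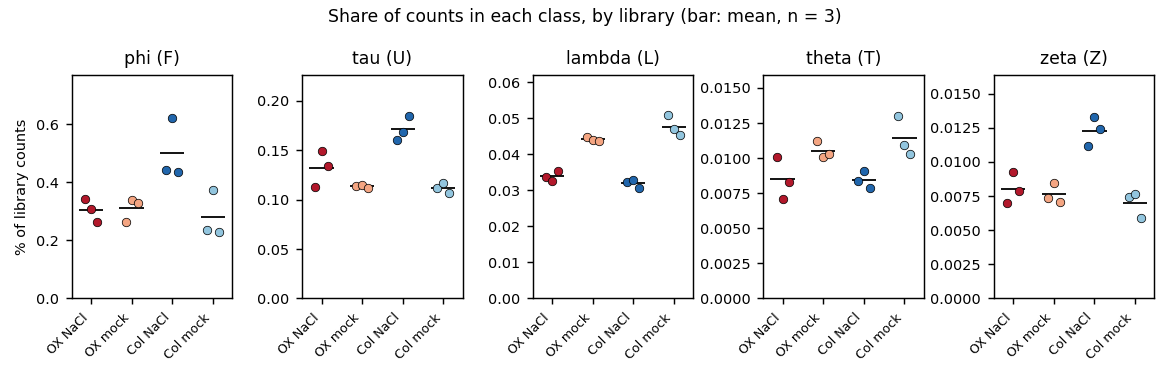
Share of each library's counts held by the 5 GST classes (vertical axes in %, one scale per class, starting at 0); points are libraries, coloured by group, and bars are means (n = 3). The 3 Col NaCl libraries stand above the rest for phi, tau and zeta genes, and both NaCl groups stand below their mock groups for lambda genes.

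The members GSTF2, GSTF9, GSTF6, GSTF10 and GSTU19, had the highest mean CPM and held 53.9% to 64.6% of the GST counts of a library. Per kilobase of exon, the mean over 12 libraries was 637 CPM for GSTF9, 576 for GSTF2, 532 for GSTF6, 436 for GSTF10 and 390 for GSTU19. Of these 5, 3 did not pass the test in any comparison below. GSTF9, a gene linked to indole glucosinolate synthesis, averaged 658 ± 124 CPM in OX NaCl, 777 ± 214 in OX mock, 886 ± 251 in Col NaCl and 821 ± 207 in Col mock leaves (SD, n = 3 each). GSTF10, a dehydration-induced gene also called ERD13, averaged 486 ± 77.1 CPM in OX NaCl, 533 ± 129 in OX mock, 496 ± 118 in Col NaCl and 461 ± 122 in Col mock leaves. GSTU19, a tau enzyme with high activity towards chlorodinitrobenzene, averaged 372 ± 89.0 CPM in OX NaCl, 427 ± 26.9 in OX mock, 508 ± 44.6 in Col NaCl and 441 ± 14.8 in Col mock leaves. The libraries of the 4 groups overlapped for GSTF9 and GSTF10.

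A further 7 members were too low to be tested. GSTU28 had 86 counts over the 12 libraries, GSTZ2 33, ATGSTF13 29, GSTU15 12 and GSTF14 1. GSTU14 and GSTU21 had no count in any library; the limit set by 3 counts lay between 0.168 and 0.293 CPM, depending on the library, and covers counting error only. The other 41 members (23 U, 11 F, 3 L, 3 T and 1 Z) passed the filter on low counts and were tested with all 18886 genes that passed it. A gene was called when the adjusted p of edgeR's quasi-likelihood test over all 18886 genes was under 0.05.

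**Figure D2:**
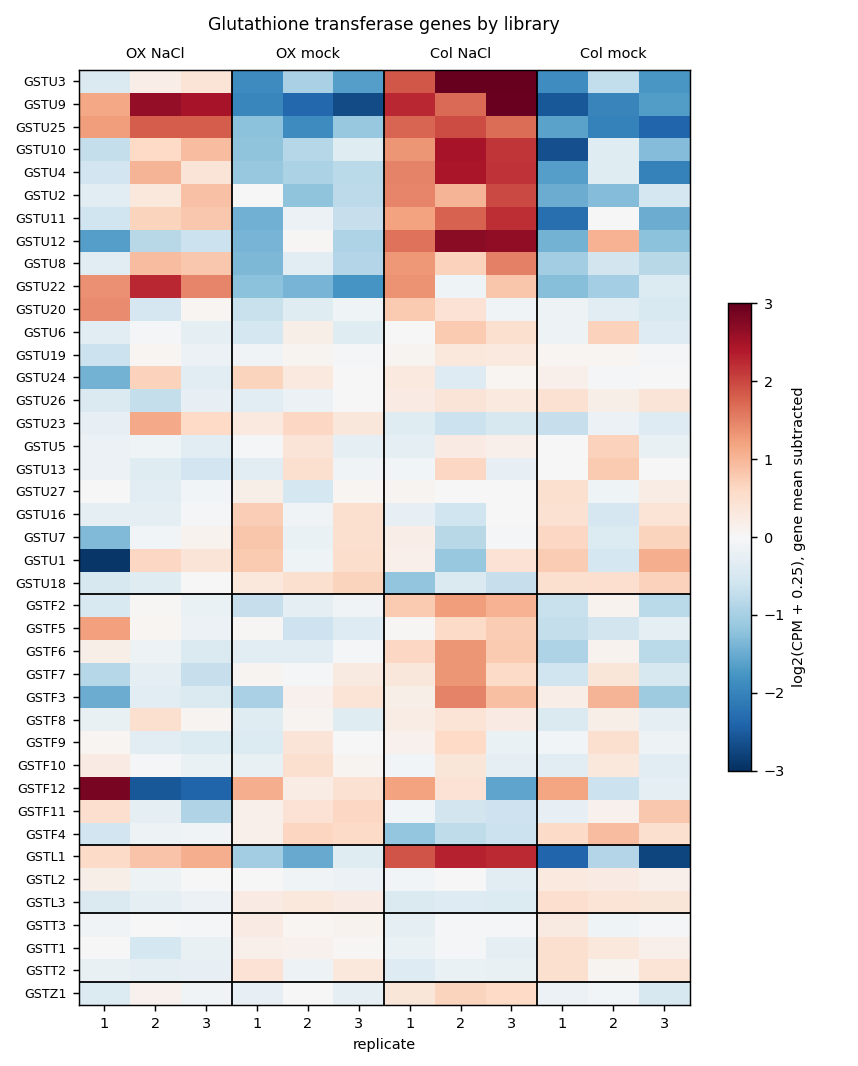
Level of each of the 41 tested members in each of the 12 libraries, as log2(CPM + 0.25) minus the gene's mean over libraries, by class from tau at the top to zeta at the bottom. Red cells are above the gene's mean and blue cells below it: GSTU3, GSTU4, GSTU10, GSTF2 and GSTL1 are reddest in the 3 Col NaCl libraries, and OX NaCl replicate 1 stands apart from its group for GSTF12 and GSTU1.

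With salt, more members were called in the wild type than in the overexpressor, as was so over all genes, and the share in the overexpressor lay near that of all genes. In the overexpressor, 6 tested members rose and 3 fell (9 of 41, 22.0%), beside 18.3% of all genes tested (9.72% higher and 8.55% lower). In the wild type, 16 rose and 6 fell (22 of 41, 53.7%), beside 41.4% of all genes tested (20.3% higher and 21.1% lower). The median log2 fold change of the 41 was -0.06 in the overexpressor, where that of all genes was 0.02, and 0.20 in the wild type, where that of all genes was -0.01. Members that rose in both genotypes numbered 6 (GSTU3, GSTU8, GSTU9, GSTU22, GSTU25 and GSTL1), and those that fell in both numbered 3 (GSTF4, GSTU18 and GSTL3). In this fit no member was called in opposite directions in the 2 genotypes. In these whole leaves, fewer cells of a type and less RNA per cell cannot be told apart. Among the 8 mesophyll, phloem, guard cell and epidermis markers, 1 was called lower with salt in the overexpressor and 6 in the wild type; in the overexpressor RBCS1A (3642 CPM in OX NaCl and 3414 in OX mock leaves) and LHCB1.3 (4987 CPM in OX NaCl and 4668 in OX mock leaves) had the higher mean in salt. Their part in the GST results was not tested.

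**Figure D3:**
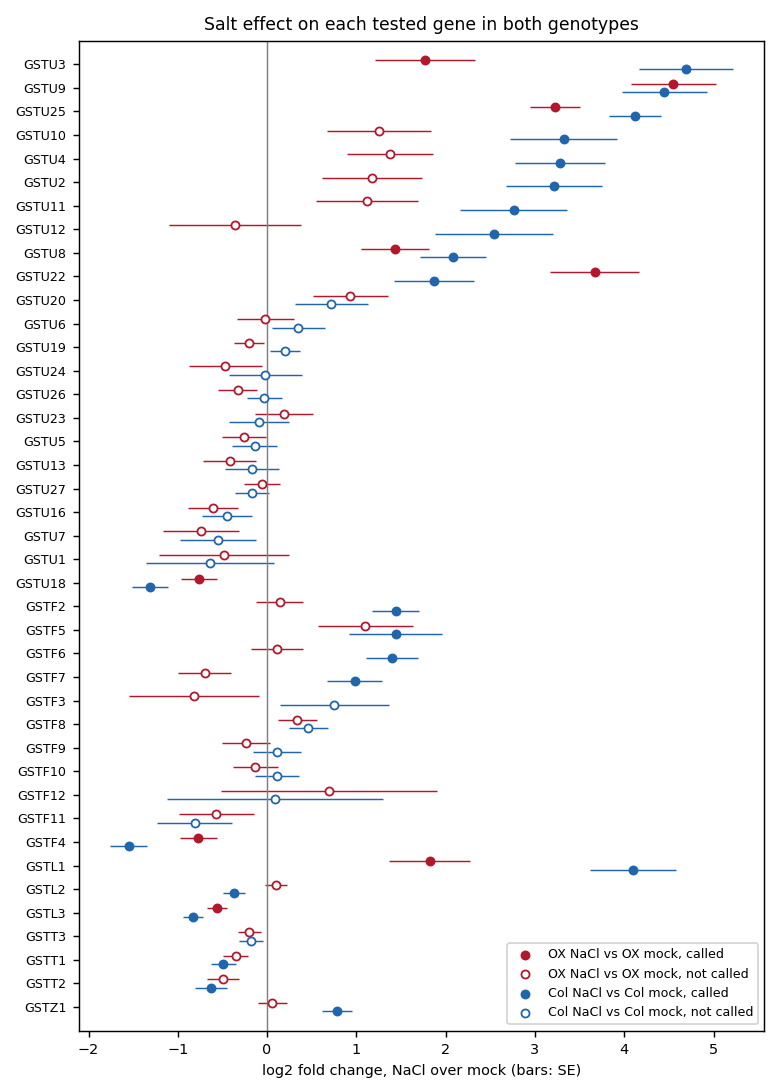
Log2 fold change with salt (NaCl over mock, horizontal axis, bars are SE) of each tested member in the overexpressor (red, upper symbol) and in the wild type (blue, lower symbol), with filled symbols for called genes. Among the genes called higher in the wild type, GSTU22 and GSTU9 lie further right in red than in blue, and the genes that fell lie within 2 log2 units of 0.

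GSTU9 and GSTU25 rose strongly and to similar levels in both genotypes. GSTU9, a tau member, had 122, 342 and 303 CPM in OX NaCl libraries (replicates 1 to 3, the order used throughout) against 13.9, 10.5 and 8.27 in OX mock, and 262, 178 and 426 CPM in Col NaCl against 9.18, 13.6 and 16.8 in Col mock. Every salted library lay above every mock library, and the salted libraries of the 2 genotypes overlapped. The log2 fold change of GSTU9 was 4.55 ± 0.48 in the overexpressor (SE, adjusted p = 0.000486) and 4.45 ± 0.48 in the wild type (adjusted p = 0.000102). GSTU25, which conjugates the explosive trinitrotoluene, had 9.63, 14.4 and 14.5 CPM in OX NaCl against 1.53, 0.878 and 1.65 in OX mock, and 13.8, 15.9 and 13.2 CPM in Col NaCl against 1.12, 0.773 and 0.557 in Col mock leaves. Salted and mock libraries did not overlap in either genotype. Its log2 fold change was 3.22 ± 0.28 in the overexpressor (adjusted p = 0.000187) and 4.12 ± 0.29 in the wild type (adjusted p = 1.64e-05).

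GSTU22 rose in both genotypes and had its highest mean in OX NaCl leaves. It had 5.45, 10.3 and 5.82 CPM in OX NaCl against 0.689, 0.585 and 0.394 in OX mock, and 5.39, 1.76 and 3.7 CPM in Col NaCl against 0.66, 0.837 and 1.42 in Col mock leaves. Salted libraries lay above mock libraries in each genotype, and each OX NaCl library was above each Col NaCl library by a margin that was small for the lowest OX library. The log2 fold change was 3.67 ± 0.50 in the overexpressor (adjusted p = 0.00152) and 1.87 ± 0.45 in the wild type (adjusted p = 0.00723). The difference between these effects, 1.80 ± 0.68, did not pass (adjusted p = 0.277). GSTU8 had 5, 12.1 and 11.2 CPM in OX NaCl against 2.3, 4.98 and 3.31 in OX mock, and 15.8, 10.3 and 18.3 CPM in Col NaCl against 2.91, 4.19 and 3.41 in Col mock leaves. The lowest OX NaCl library, replicate 1, stood just above the highest OX mock library. GSTU8 rose by 1.43 ± 0.38 (log2) in the overexpressor (adjusted p = 0.0267) and 2.08 ± 0.37 in the wild type (adjusted p = 0.00148). Its call in the overexpressor was lost without OX mock replicate 1 or 3 or without OX NaCl replicate 2 or 3 (adjusted p = 0.0718 to 0.0995).

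The tau genes GSTU2, GSTU3, GSTU4, GSTU10, GSTU11 and GSTU12 had lower mean levels in OX NaCl than in Col NaCl leaves, and each rose in the wild type. The same was so for GSTU8, GSTU9 and GSTU25 above, with smaller gaps relative to their levels. Of the genes in this group, GSTU3 and GSTU12 alone were called between the genotypes in salt. GSTU3 had 2.54, 4.05 and 4.76 CPM in OX NaCl against 0.766, 1.66 and 0.945 in OX mock, and 13.4, 43.6 and 38.1 CPM in Col NaCl against 0.792, 2 and 0.867 in Col mock leaves. The lowest Col NaCl library was above the highest OX NaCl library. GSTU3 rose by 4.69 ± 0.53 (log2) in the wild type (adjusted p = 0.000123) and by 1.77 ± 0.56 in the overexpressor (adjusted p = 0.0498). The overexpressor call was lost when any of 9 libraries was left out, namely each OX library, Col mock replicates 1 and 3 and Col NaCl replicate 3 (adjusted p = 0.0542 to 0.157).

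Its neighbour GSTU4 had 16.3, 49.6 and 31.9 CPM in OX NaCl against 11, 12.5 and 14 in OX mock, and 69.6, 136 and 111 CPM in Col NaCl against 7.66, 19.1 and 5.88 in Col mock leaves. The salted libraries of the 2 genotypes did not overlap, and OX NaCl replicate 1 stood close to the mock libraries. GSTU4 rose by 3.28 ± 0.50 (log2) in the wild type (adjusted p = 0.000636); in the overexpressor the value was 1.38 ± 0.48 (adjusted p = 0.0708), which passed the threshold without OX NaCl replicate 1 (1.70, adjusted p = 0.0373) and without Col mock replicate 2 (adjusted p = 0.0322). GSTU2, the lowest of the tested neighbours, had 0.747, 1.32 and 2.05 CPM in OX NaCl against 0.995, 0.293 and 0.473 in OX mock, and 3.21, 2.29 and 4.7 CPM in Col NaCl against 0.198, 0.258 and 0.619 in Col mock leaves. Those values rest on 50, 22, 170 and 17 counts a group. GSTU2 rose by 3.21 ± 0.54 (log2) in the wild type (adjusted p = 0.00106), with 3.85 when Col mock replicate 3 was left out, and had 1.17 ± 0.56 in the overexpressor (adjusted p = 0.17). The last 90 coding bases of GSTU3 (chr2:12628666-12628755, minus strand) and GSTU4 (chr2:12626689-12626778, minus strand; RefSeq, TAIR10.1) are shown because these neighbours of different expression level are 81.6% identical over the coding sequence, with the 14 differing bases of this window in capitals.
GSTU3: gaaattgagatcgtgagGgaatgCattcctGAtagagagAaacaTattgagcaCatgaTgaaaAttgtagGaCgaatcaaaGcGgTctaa
GSTU4: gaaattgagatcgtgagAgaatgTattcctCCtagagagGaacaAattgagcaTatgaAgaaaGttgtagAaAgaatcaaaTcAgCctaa

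GSTU10, GSTU11 and GSTU12 also stood highest in Col NaCl leaves, with OX NaCl the second highest group for GSTU10 and GSTU11 and the lowest for GSTU12. GSTU10 had 3.66, 9.59 and 12 CPM in OX NaCl against 2.53, 3.32 and 4.73 in OX mock, and 16, 35.5 and 28.1 CPM in Col NaCl against 0.792, 4.77 and 2.35 in Col mock leaves. All 3 Col NaCl libraries were above the other 9. It rose by 3.32 ± 0.60 (log2) in the wild type (adjusted p = 0.00154) and had 1.25 ± 0.58 in the overexpressor (adjusted p = 0.163). The overexpressor value passed when replicate number was added to the edgeR model (1.15, adjusted p = 0.0309). GSTU11 had 18.5, 45.1 and 49.8 CPM in OX NaCl against 10.3, 24.9 and 17.3 in OX mock, and 66, 96.7 and 131 CPM in Col NaCl against 5.68, 27.8 and 9.97 in Col mock leaves. Col mock replicate 2 stood well above the other 2 Col mock libraries, as it did for GSTU10 and GSTU12. GSTU11 rose by 2.76 ± 0.60 in the wild type (adjusted p = 0.00432) and had 1.12 ± 0.57 in the overexpressor (adjusted p = 0.201). With replicate number in the model the latter also passed (1.10, adjusted p = 0.0392). GSTU12 had 1.42, 2.73 and 3.12 CPM in OX NaCl against 1.76, 5.17 and 2.52 in OX mock, and 16.1, 34.1 and 33.1 CPM in Col NaCl against 1.72, 10.6 and 1.98 in Col mock leaves. Salted and mock OX libraries overlapped, and salted Col libraries lay above all others. GSTU12 rose by 2.54 ± 0.66 in the wild type (adjusted p = 0.0112) and had -0.36 ± 0.74 in the overexpressor (adjusted p = 0.767). Without Col mock replicate 2 the wild-type log2 fold changes were 3.96 for GSTU4, 4.06 for GSTU10, 3.64 for GSTU11 and 3.90 for GSTU12.

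**Figure D4:**
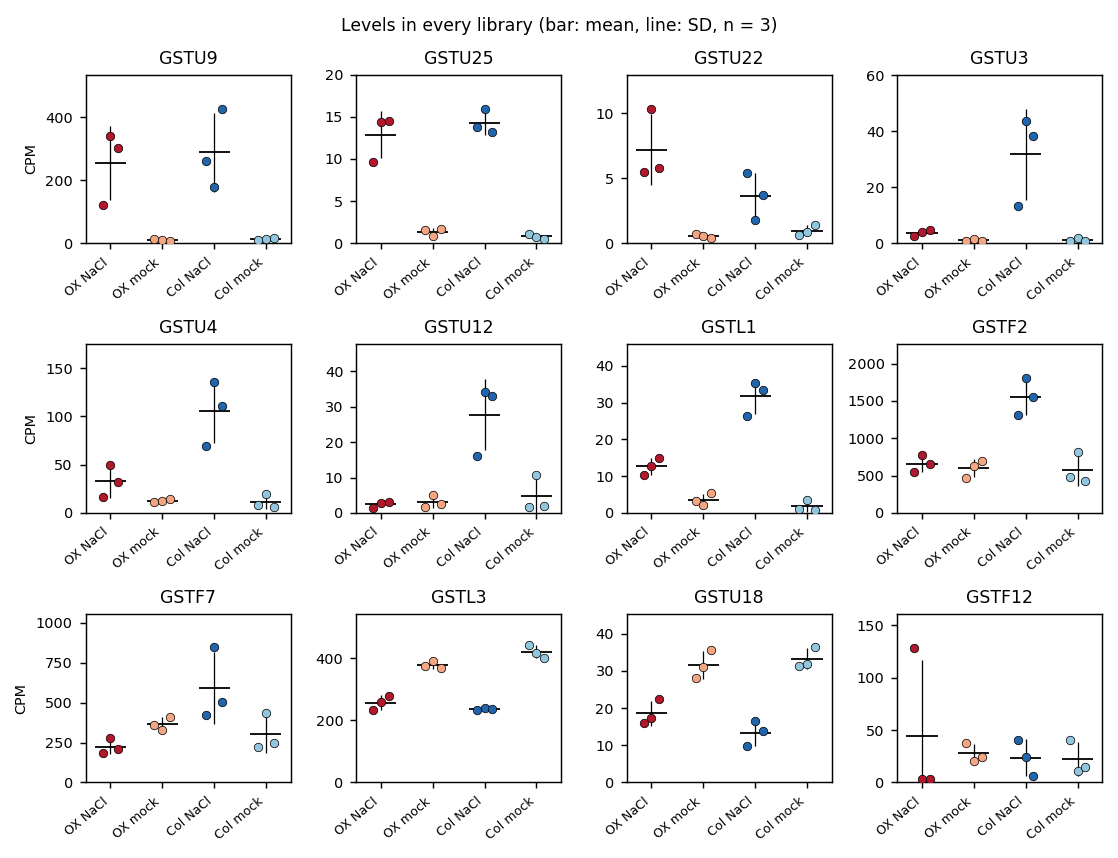
CPM of 12 members in each library (points, one linear axis per gene starting at 0), with the group mean as a bar and the SD as a line (n = 3, cut at 0). GSTU9 and GSTU25 reach similar levels in both NaCl groups, GSTU3, GSTU4, GSTU12, GSTL1 and GSTF2 stand highest in the 3 Col NaCl libraries, GSTL3 and GSTU18 stand lower in both NaCl groups, and GSTF12 is high in a single OX NaCl library.

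Among the 11 tested phi genes, GSTF2, GSTF5, GSTF6 and GSTF7 rose in the wild type (36.4%), beside 20.3% of all genes tested. None was called higher in the overexpressor, beside 9.72% of all genes tested. No phi gene passed the test of a difference between these salt effects. GSTF2, which binds auxin, camalexin and other indole or flavonoid ligands, had 549, 769 and 656 CPM in OX NaCl against 467, 623 and 700 in OX mock, and 1305, 1812 and 1555 CPM in Col NaCl against 476, 816 and 431 in Col mock leaves. The Col NaCl libraries stood above all others, and the OX groups overlapped. GSTF2 rose by 1.44 ± 0.26 (log2) in the wild type (adjusted p = 0.00153) and had 0.14 ± 0.26 in the overexpressor (adjusted p = 0.737). GSTF6, which acts in the synthesis of the phytoalexin camalexin, had 646, 514 and 425 CPM in OX NaCl against 449, 459 and 559 in OX mock, and 873, 1427 and 978 CPM in Col NaCl against 301, 613 and 327 in Col mock leaves. Again the Col NaCl libraries alone stood above the rest. GSTF6 rose by 1.40 ± 0.29 in the wild type (adjusted p = 0.00339) and had 0.11 ± 0.29 in the overexpressor (adjusted p = 0.817).

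GSTF7 had 186, 276 and 211 CPM in OX NaCl against 359, 329 and 410 in OX mock, and 425, 848 and 501 CPM in Col NaCl against 225, 433 and 244 in Col mock leaves. OX NaCl libraries lay below OX mock libraries without overlap, while the Col groups overlapped through Col mock replicate 2. GSTF7 rose by 0.98 ± 0.31 in the wild type (adjusted p = 0.0255) and had -0.70 ± 0.30 in the overexpressor (adjusted p = 0.132). The wild-type call was lost without Col mock replicate 1 or 3 or Col NaCl replicate 2 (adjusted p = 0.0907 to 0.111). GSTF5 stood near the lower limit of the test, at 0.942 ± 0.674 CPM in OX NaCl, 0.433 ± 0.163 in OX mock, 0.93 ± 0.288 in Col NaCl and 0.34 ± 0.086 in Col mock leaves (SD, n = 3 each). It rose by 1.44 ± 0.52 in the wild type (adjusted p = 0.046), a call lost without any of 8 libraries, namely each mock library of both genotypes and Col NaCl replicates 2 and 3 (adjusted p = 0.0533 to 0.135), and it had 1.10 ± 0.53 in the overexpressor (adjusted p = 0.176). GSTF4, the last gene of that cluster, fell in both genotypes, with 6.05, 8.27 and 8.53 CPM in OX NaCl against 10.3, 14.6 and 13.9 in OX mock, and 3.96, 5.35 and 5.82 CPM in Col NaCl against 13.8, 17.7 and 12.9 in Col mock leaves. Salted and mock libraries did not overlap in either genotype. The log2 fold change of GSTF4 was -0.77 ± 0.21 in the overexpressor (adjusted p = 0.0304, and 0.0594 to 0.0993 without OX mock replicate 2 or 3 or OX NaCl replicate 1 or 2) and -1.55 ± 0.21 in the wild type (adjusted p = 0.000314).

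Among phi genes 2 pairs are near copies, which bears on how reads could be assigned. GSTF2 and GSTF3 are 94.5% identical over the coding sequence and share 5.93% of their coding 50-base words, and GSTF6 and GSTF7 are 94.3% identical and share 17.3% and 17.2% of theirs. The last 90 coding bases of each pair follow, with the 5 and the 4 bases that differ in capitals: GSTF2 (chr4:1110673-1110762), GSTF3 (chr2:851348-851437), GSTF6 (chr1:661363-661452) and GSTF7 (chr1:658886-658975), all on the minus strand.
GSTF2: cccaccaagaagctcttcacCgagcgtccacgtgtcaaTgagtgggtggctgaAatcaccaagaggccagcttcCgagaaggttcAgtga
GSTF3: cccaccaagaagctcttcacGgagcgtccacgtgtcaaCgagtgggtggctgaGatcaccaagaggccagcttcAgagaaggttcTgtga
GSTF6: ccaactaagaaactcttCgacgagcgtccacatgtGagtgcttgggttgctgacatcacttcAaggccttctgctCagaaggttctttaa
GSTF7: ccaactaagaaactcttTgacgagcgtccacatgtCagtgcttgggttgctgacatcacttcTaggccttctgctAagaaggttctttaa
Despite that likeness GSTF3 was low, at 0.723 ± 0.369 CPM in OX NaCl, 1.27 ± 0.659 in OX mock, 2.75 ± 1.31 in Col NaCl and 1.64 ± 1.21 in Col mock leaves (SD, n = 3 each), and some of its counts could belong to GSTF2. GSTF6 and GSTF7 reads in shared words could be split or dropped, so that their separate values are less certain than those of the 41 members with no shared coding word. The theta genes share words too, 5.95% for GSTT1, 6.31% for GSTT2 and 6.32% for GSTT3.

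The remaining phi genes did not pass in either salt comparison. GSTF8, a stress-marker gene of roots, averaged 346 ± 86.9 CPM in OX NaCl, 274 ± 52.7 in OX mock, 387 ± 28.9 in Col NaCl and 282 ± 64.0 in Col mock leaves (SD, n = 3 each). GSTF11, which acts in aliphatic glucosinolate synthesis, averaged 1.61 ± 0.914 CPM in OX NaCl, 2.42 ± 0.423 in OX mock, 1.27 ± 0.317 in Col NaCl and 2.22 ± 0.948 in Col mock leaves. GSTF12, also called TT19 and needed to carry anthocyanins to the vacuole, had 128, 2.82 and 3.12 CPM in OX NaCl against 38, 20.6 and 24.4 in OX mock, and 40.9, 24 and 5.77 CPM in Col NaCl against 40.5, 11.3 and 14.7 in Col mock leaves. OX NaCl replicate 1 was the highest of the 12 libraries and replicates 2 and 3 the lowest. The log2 fold change in the overexpressor, 0.69 ± 1.21 (adjusted p = 0.727), became -3.22 (adjusted p = 0.0396) without that replicate. The same library was lowest of its group for GSTU1 (3.58 CPM, against 44.2 and 37.5 in replicates 2 and 3) and GSTU24 (23.1 CPM, against 101 and 49.9), and highest for GSTU20 (227 CPM, against 60.3 and 88.7), a gene of glucosinolate synthesis. It was the lowest OX NaCl library in 14 of the 16 genes that rose in the wild type, and Col mock replicate 2 was the highest Col mock library in 11 of them. The same counts over all 3833 genes that rose there were not made, so these are not read as a trait of the members.

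Lambda genes moved in opposite directions although 2 of them are neighbours. GSTL1 had 10.4, 12.8 and 15 CPM in OX NaCl against 3.22, 2.24 and 5.28 in OX mock, and 26.3, 35.3 and 33.5 CPM in Col NaCl against 1.12, 3.61 and 0.805 in Col mock leaves. All NaCl libraries were above all mock libraries, and all Col NaCl libraries were above all OX NaCl libraries. GSTL1 rose by 1.82 ± 0.45 (log2) in the overexpressor (adjusted p = 0.0209) and 4.10 ± 0.48 in the wild type (adjusted p = 0.000151); without Col mock replicate 2 the wild-type value was 5.03. The overexpressor call was lost without OX mock replicate 1 or 2 or OX NaCl replicate 2 or 3 (adjusted p = 0.0506 to 0.079). GSTL3 had 233, 258 and 279 CPM in OX NaCl against 373, 391 and 369 in OX mock, and 232, 239 and 236 CPM in Col NaCl against 442, 417 and 401 in Col mock leaves. NaCl and mock libraries did not overlap. GSTL3 fell by 0.56 on the log2 scale in the overexpressor (SE 0.11, adjusted p = 0.00759) and by 0.83 in the wild type (SE 0.11, adjusted p = 0.000238). GSTL2 averaged 60.5 ± 6.63 CPM in OX NaCl, 56.5 ± 3.87 in OX mock, 54.4 ± 6.11 in Col NaCl and 70.4 ± 2.92 in Col mock leaves. It fell in the wild type (log2 -0.37 ± 0.12, adjusted p = 0.0285), a call lost without Col mock replicate 1 or 2 or Col NaCl replicate 1 or 3 (adjusted p = 0.0507 to 0.109), and had 0.10 ± 0.12 in the overexpressor (adjusted p = 0.598).

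GSTU18 was the single tau gene that fell, 4.35% of the 23 tested in each genotype. Of all genes tested, 8.55% fell in the overexpressor and 21.1% in the wild type. It had 16.1, 17.4 and 22.4 CPM in OX NaCl against 28.1, 31.1 and 35.5 in OX mock, and 9.69, 16.6 and 13.7 CPM in Col NaCl against 31.3, 31.9 and 36.5 in Col mock leaves. No salted library reached a mock library. GSTU18 fell by 0.76 on the log2 scale in the overexpressor (SE 0.20, adjusted p = 0.0237) and by 1.31 in the wild type (SE 0.20, adjusted p = 0.00052). The overexpressor call was lost without OX mock replicate 3 or OX NaCl replicate 1 or 2 (adjusted p = 0.0683 to 0.0883). GSTU18 overlaps ERD9 (GSTU17) on the same strand, so the strand of a read from the shared stretch does not tell these genes apart. ERD9, a gene of light signalling, averaged 56.8 ± 33.9 CPM in OX NaCl, 47.7 ± 11.3 in OX mock, 50.8 ± 5.09 in Col NaCl and 48.1 ± 12.7 in Col mock leaves (SD, n = 3 each) and did not pass in either salt comparison. The other 12 tested tau genes were not called with salt in either genotype. Apart from GSTU1, GSTU19, GSTU20, GSTU24 and GSTU26, described elsewhere, their mean levels over the 12 libraries were 146 CPM for GSTU13, 94.6 for GSTU5, 56.0 for GSTU7, 54.4 for GSTU16, 32.5 for GSTU27, 7.73 for GSTU6 and 2.74 for GSTU23.

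Of the 3 theta genes, GSTT1 and GSTT2 fell in the wild type, where 21.1% of all genes tested fell. None passed in the overexpressor, where 18.3% of all genes tested were called. GSTT1 averaged 66.3 ± 11.6 CPM in OX NaCl, 84.3 ± 3.27 in OX mock, 69.5 ± 5.59 in Col NaCl and 97.8 ± 11.0 in Col mock leaves. Its log2 fold change was -0.49 ± 0.14 in the wild type (adjusted p = 0.0171; 0.0502 to 0.0716 without Col mock replicate 1 or Col NaCl replicate 1 or 3) and -0.35 ± 0.14 in the overexpressor (adjusted p = 0.114; 0.0448 without OX NaCl replicate 1). GSTT2 averaged 5.43 ± 0.135 CPM in OX NaCl, 7.64 ± 1.59 in OX mock, 5.35 ± 0.378 in Col NaCl and 8.27 ± 1.23 in Col mock leaves. It fell by 0.63 in the wild type (SE 0.18, adjusted p = 0.0155; 0.0513 to 0.0626 without replicate 1 of Col mock or Col NaCl) and had -0.49 ± 0.18 in the overexpressor (adjusted p = 0.0794; 0.0302 without OX mock replicate 2). GSTT3 averaged between 10.2 and 12.3 CPM in the 4 groups and was not called. The tested zeta gene, GSTZ1, had 64.1, 92 and 78.7 CPM in OX NaCl against 71.5, 85.8 and 68.8 in OX mock, and 109, 135 and 128 CPM in Col NaCl against 75.3, 80.2 and 60.7 in Col mock leaves. The Col NaCl libraries were above all others. GSTZ1 rose by 0.78 ± 0.17 in the wild type (adjusted p = 0.00361) and had 0.06 ± 0.16 in the overexpressor (adjusted p = 0.844).

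In mock leaves no member differed between the genotypes at the threshold, beside 0.101% of all genes tested (0.0635% higher and 0.0371% lower). DESeq2 also called 0 members, beside 0.957% of all genes it tested. In edgeR 4 members (9.76%) had an unadjusted p under 0.05, close to the 7.34% of all genes. These 4, named after their values were seen, were GSTU23, GSTU25, GSTU26 and GSTL2. The median log2 fold change of the 41 members was -0.04, that of all genes -0.02.

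In salted leaves 6 members were lower in the overexpressor and 0 were higher (6 of 41, 14.6%), beside 4.39% of all genes tested (2.07% higher and 2.32% lower). Of the 41, 14 members had a positive log2 fold change, the median was -0.16 (0.02 over all genes), and 19 (46.3%) had an unadjusted p under 0.05, beside 22.3% of all genes. The 6 were GSTU12, GSTU3, GSTF7, GSTF2, GSTU26 and GSTZ1, of which all but GSTU26 also rose with salt in the wild type. For these 5 the per-library values above show no overlap between OX NaCl and Col NaCl libraries. They were picked by their call on the same libraries, so this adds no support to the calls. The share of all called genes without overlap was not computed. The log2 fold change (OX NaCl over Col NaCl) was -3.52 ± 0.71 for GSTU12 (adjusted p = 0.0274), -3.07 ± 0.48 for GSTU3 (adjusted p = 0.0179), -1.40 ± 0.31 for GSTF7 (adjusted p = 0.0346), -1.24 ± 0.26 for GSTF2 (adjusted p = 0.0297) and -0.66 ± 0.17 for GSTZ1 (adjusted p = 0.048). GSTU26, which acts on herbicides, had 1.34, 1.06 and 1.56 CPM in OX NaCl against 2.32, 2.59 and 2.41 in Col NaCl, and 1.45, 1.66 and 1.89 in OX mock against 2.71, 2.19 and 2.6 in Col mock leaves. Its OX libraries lay below its Col libraries in both conditions, and the salted difference was -0.88 ± 0.21 (adjusted p = 0.0459).

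None of these 6 calls held under every alternative. Leaving out 1 library ended the call of GSTU26 for each of the 12 libraries (adjusted p = 0.0508 to 0.141), of GSTZ1 for each except Col NaCl replicate 1 (0.0512 to 0.154), of GSTF7 for Col NaCl replicates 2 and 3, OX mock replicates 1 and 3 and every OX NaCl library (0.0553 to 0.116), of GSTF2 (0.0541 to 0.104) and GSTU12 (0.0645 to 0.0914) for Col NaCl replicates 2 and 3 and every OX NaCl library, and of GSTU3 for Col NaCl replicates 2 and 3 and OX NaCl replicate 3 (0.0558 to 0.0655). When the fit held the 6 salted libraries alone, 0 members were called, beside 0.0708% of all genes tested in that fit. DESeq2 called 11 (26.2% of 42), beside 9.03% of all genes it tested. Some members were not called although their OX NaCl and Col NaCl libraries did not overlap. GSTU23, GSTF4 and GSTU22 among them were higher in OX NaCl leaves and the others lower. How many of all genes did the same was not computed, so this is not read as a trait of the members. Nearest to the threshold were GSTF6 at -1.05 ± 0.29 (adjusted p = 0.0676), GSTU23 at 1.18 ± 0.33 (0.0690) and GSTU4 at -1.70 ± 0.47 (0.0696). Values farther from it were -1.32 ± 0.42 for GSTL1 (0.101), -1.66 ± 0.55 for GSTU10 (0.113), 0.59 ± 0.21 for GSTF4 (0.142) and -1.37 ± 0.57 for GSTU11 (0.188). Of the 16 members that rose with salt in the wild type, 11 (68.8%) had every OX NaCl library below every Col NaCl library, beside 35.5% of the 3833 genes that rose there; both were selected on the same Col NaCl libraries, and no test was run.

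The salt effect itself was compared between genotypes by the interaction term (effect in the overexpressor minus effect in the wild type). Of the 16 members that rose in the wild type, 14 (87.5%) had the larger log2 fold change there, the exceptions being GSTU9 and GSTU22. Selection in the wild type favours that direction, and the share was 88.1% over all 3833 genes that rose there, so the count says nothing particular about the members. No member passed the interaction test, beside 0% of all genes tested, while 14 members (34.1%) had an unadjusted p under 0.05, beside 13.7% of all genes, and DESeq2 called 4 (9.52% of 42), beside 3.46% of all genes it tested. The DESeq2 calls were GSTU3 (-2.97, adjusted p = 0.00608), GSTF7 (-1.71, 0.0111), GSTL1 (-2.31, 0.0229) and GSTF2 (-1.33, 0.0259). In edgeR the values were -2.93 ± 0.77 for GSTU3 (adjusted p = 0.134), -1.68 ± 0.43 for GSTF7 (0.126), -1.30 ± 0.36 for GSTF2 (0.152) and -1.29 ± 0.41 for GSTF6 (0.195). GSTL1 passed without Col mock replicate 2 (-3.21, adjusted p = 0.0384).

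Most of the family lies in tandem arrays, where neighbours were called alike in some places and not in others. A call in 1 gene and none in its neighbour does not test their difference, and no such test was run. With gaps of up to 10 kb, 34 of the 48 members fell into 11 clusters. The largest, 7 tau genes in 14.6 kb of chromosome 2 (12617936 to 12632538), runs from GSTU7 through GSTU6, GSTU5, GSTU4, GSTU3 and GSTU2 to GSTU1. In it GSTU4, GSTU3 and GSTU2, which are adjacent, rose in the wild type, and GSTU7, GSTU6, GSTU5 and GSTU1 were not called in either genotype. On chromosome 1 (658578 to 666471), GSTF7, GSTF6 and GSTF5 rose in the wild type while the adjacent GSTF4 fell. Elsewhere on chromosome 1, GSTU25 rose between GSTU24 and GSTU26, neither of which was called with salt, GSTU22 alone rose among GSTU23, GSTU22, GSTU20 and GSTU19, and GSTU12 and GSTU11 both rose in the wild type. On chromosome 5 (630748 to 635240), GSTL1 rose and GSTL3 fell, with 75.6% coding identity. The neighbours GSTF9 and GSTF10 were not called with salt in either genotype. Positions are those of RefSeq TAIR10.1.

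**Figure D5:**
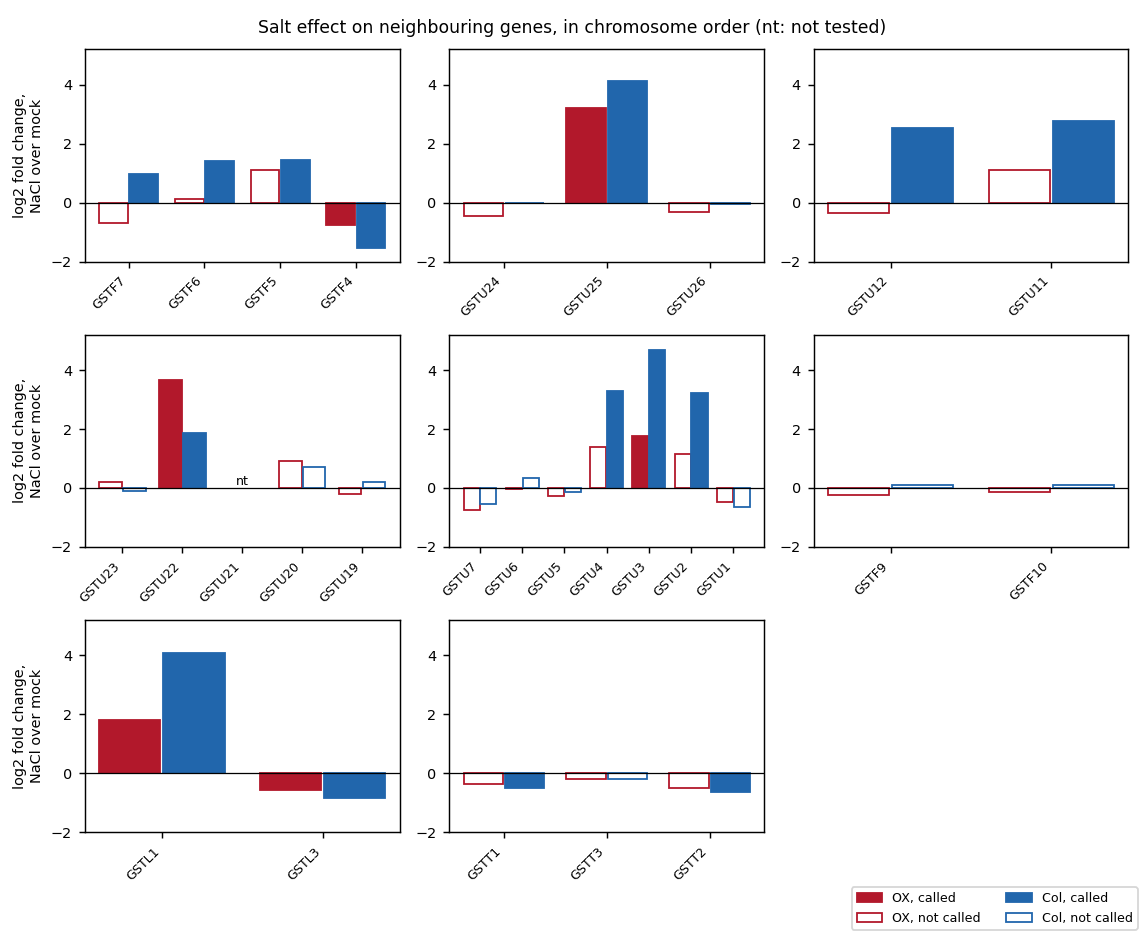
Log2 fold change with salt (NaCl over mock) of neighbouring members in chromosome order, for the 8 clusters with at least 2 tested members, with red bars for the overexpressor and blue for the wild type and filled bars for called genes. GSTU25, called in both genotypes, stands between the uncalled GSTU24 and GSTU26, and GSTL1, which rose, stands next to GSTL3, which fell.

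In all, 12 members overlap a gene on the opposite strand (GSTF2, GSTF4, GSTF10, GSTF11, GSTF12, GSTU2, GSTU6, GSTU7, GSTU10, GSTL2, GSTL3 and GSTZ1) and 3 a gene on the same strand (GSTU10, GSTU18 and GSTF8). The libraries were strand-specific, but whether counting used the strand is not given in the sources used here. If it did not, reads from the stretches where those 12 genes overlap their partners could not be told apart. For the 3 overlaps on the same strand, the strand of a read does not tell the genes apart under either setting. The length of these stretches was not measured.

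The promoter windows (250 bases before to 50 after the annotated start, RefSeq TAIR10.1) were searched on both strands for TGACG, the core of as-1 elements bound by TGA factors; TTGAC, the W-box core of WRKY factors; GCCGCC, the GCC box of ERF proteins; GCCGAC, the dehydration-responsive element of DREB proteins; and CACGTG, the G box. TGACG was found in 19 of 48 members (39.6%) and 23.1% of 27443 promoters, TTGAC in 58.3% and 50.5%, GCCGCC in 4 (8.33%) and 2.57%, GCCGAC in 1 (2.08%) and 3.28%, and CACGTG in 3 (6.25%) and 7.68%. A W-box core and an as-1 core can share bases where one runs into the other. The as-1 core lay in 6 of the 16 promoters of genes that rose in the wild type, 1 of 6 that fell and 11 of 19 not called. GCCGCC lay in GSTU10 and GSTU12, which rose in the wild type, and in GSTF10 and GSTU13, which were not called. The 5 windows are printed for genes that the comparisons turn on, 4 that rose in both genotypes and GSTU12, which rose in the wild type and whose OX NaCl libraries overlapped its OX mock libraries; capitals mark the motifs, which appear as their reverse complements where they lie on the other strand. The windows are GSTU9 at chr5:25089577-25089876 (minus strand), GSTU25 at chr1:5871774-5872073 (plus), GSTU22 at chr1:29473954-29474253 (minus), GSTU3 at chr2:12629591-12629890 (minus) and GSTU12 at chr1:26335581-26335880 (minus).
GSTU9: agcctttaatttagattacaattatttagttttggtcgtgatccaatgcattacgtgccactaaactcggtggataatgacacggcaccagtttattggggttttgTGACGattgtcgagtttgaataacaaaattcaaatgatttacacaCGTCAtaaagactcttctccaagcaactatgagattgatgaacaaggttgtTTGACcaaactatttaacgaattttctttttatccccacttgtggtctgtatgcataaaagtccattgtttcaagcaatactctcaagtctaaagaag
GSTU25: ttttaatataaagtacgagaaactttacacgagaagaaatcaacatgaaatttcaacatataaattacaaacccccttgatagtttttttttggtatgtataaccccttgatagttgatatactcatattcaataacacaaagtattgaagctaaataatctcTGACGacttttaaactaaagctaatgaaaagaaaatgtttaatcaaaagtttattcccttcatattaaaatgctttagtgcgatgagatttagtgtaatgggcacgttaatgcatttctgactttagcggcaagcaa
GSTU22: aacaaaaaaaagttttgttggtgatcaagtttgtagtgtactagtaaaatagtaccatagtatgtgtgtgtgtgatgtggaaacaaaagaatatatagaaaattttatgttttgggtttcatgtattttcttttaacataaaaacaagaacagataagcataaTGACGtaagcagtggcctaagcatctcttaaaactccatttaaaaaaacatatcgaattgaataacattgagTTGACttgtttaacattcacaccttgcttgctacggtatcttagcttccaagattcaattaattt
GSTU3: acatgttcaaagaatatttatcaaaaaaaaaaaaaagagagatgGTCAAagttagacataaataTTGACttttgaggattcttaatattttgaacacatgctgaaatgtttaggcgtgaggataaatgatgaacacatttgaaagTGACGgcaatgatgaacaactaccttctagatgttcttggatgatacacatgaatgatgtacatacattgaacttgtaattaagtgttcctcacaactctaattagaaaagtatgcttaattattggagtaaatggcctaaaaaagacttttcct
GSTU12: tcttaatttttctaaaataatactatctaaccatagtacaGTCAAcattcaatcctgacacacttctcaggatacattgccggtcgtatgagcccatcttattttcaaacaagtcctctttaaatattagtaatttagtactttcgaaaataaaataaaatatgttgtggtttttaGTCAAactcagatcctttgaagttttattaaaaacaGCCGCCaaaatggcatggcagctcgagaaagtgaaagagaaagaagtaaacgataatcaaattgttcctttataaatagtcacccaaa
GSTU9 holds TGACG at 2 places, GSTU25, GSTU22 and GSTU3 at 1, and GSTU12 at none, while GSTU12 holds TTGAC at 2 places and GCCGCC at 1. Of the other members that rose in both genotypes, GSTL1 holds the as-1 core at 1 place and GSTU8 holds none of the motifs searched. These letters describe the windows and show no binding.

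Genes around the GSTs were read from lists of glutathione metabolism. Their counts stand beside 18.3% of all genes tested called with salt in the overexpressor and 41.4% in the wild type. Of 4 genes of other GST-fold proteins, 0 were called in the overexpressor and 1 fell in the wild type, the dehydroascorbate reductase gene DHAR2 (52.1 ± 3.25 CPM in Col NaCl and 78.9 ± 10.5 in Col mock leaves; log2 -0.60, adjusted p = 0.047). Of 4 genes of glutathione synthesis and reduction, 0 were called in the overexpressor and 2 in the wild type. The cytosolic glutathione reductase gene GR1 averaged 178 ± 16.7 CPM in OX NaCl, 164 ± 11.2 in OX mock, 258 ± 25.0 in Col NaCl and 148 ± 15.3 in Col mock leaves (SD, n = 3 each). It rose in the wild type (0.80 ± 0.13, adjusted p = 0.000799) and was lower in the overexpressor in salt (-0.53 ± 0.13, adjusted p = 0.0453). That was 1 of these 4 genes, beside 4.39% of all genes tested. Whether this call holds when a library is left out was not examined. The group order of GR1 was that of GSTF2 and GSTZ1, but how many of all genes share it was not computed. The organellar reductase gene GR2 fell in the wild type (-0.54 ± 0.13, adjusted p = 0.00659).

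Of 10 tested genes for transport and breakdown of glutathione conjugates, 2 rose in each genotype and 0 fell. Of all genes tested, 18.3% were called with salt in the overexpressor and 41.4% in the wild type. ABCC3, a vacuolar pump for glutathione conjugates, averaged 1503 ± 680 CPM in OX NaCl, 587 ± 162 in OX mock, 1441 ± 374 in Col NaCl and 517 ± 57.9 in Col mock leaves (SD, n = 3 each), and OX NaCl replicate 1 (761 CPM) lay within the OX mock range. ABCC3 rose by 1.36 ± 0.34 in the overexpressor (adjusted p = 0.0229) and 1.48 ± 0.35 in the wild type (adjusted p = 0.00634). The other calls were GGCT2;1, a glutathione-degrading cyclotransferase gene, in the overexpressor (0.63 ± 0.17, adjusted p = 0.0264), and GGT1, an extracellular glutamyl transferase gene, in the wild type (1.71 ± 0.56, adjusted p = 0.0321). Of 3 genes of sulphate reduction, APR1 rose in the wild type (1.01 ± 0.23, adjusted p = 0.00512). Of 11 genes of the network of TGA factors and SCL14, which controls detoxification genes, 2 rose and 1 fell in the overexpressor. In the wild type 3 rose and 1 fell. These short lists were not tested against the shares of 18.3% and 41.4% over all genes. CYP81D8, a cytochrome P450 target of that network, averaged 575 ± 268 CPM in OX NaCl, 96.8 ± 47.7 in OX mock, 960 ± 298 in Col NaCl and 105 ± 38 in Col mock leaves (SD, n = 3 each). It rose by 2.57 ± 0.49 in the overexpressor (adjusted p = 0.00752) and 3.19 ± 0.51 in the wild type (adjusted p = 0.00076). The NAC factor gene ATAF2 rose in both genotypes (1.13 ± 0.35, adjusted p = 0.0492, in the overexpressor and 1.84 ± 0.36, adjusted p = 0.00249, in the wild type), ANAC102 in the wild type (1.27 ± 0.38, adjusted p = 0.0206), and the oxophytodienoate reductase gene OPR2 fell in both (-1.80 ± 0.38, adjusted p = 0.0111, and -1.83 ± 0.38, adjusted p = 0.0035).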

How the data were processed

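RNA from 12 libraries (4 groups of 3) was sequenced from strand-specific TruSeq mRNA libraries, per the labels' protocols. The authors deposited raw read counts per gene; TopHat, Cufflinks and the TAIR10 build appear in the submitters' processing notes, and the strand setting of counting is not given in the sources used here. A second deposited table of normalized values was not used. Rows without a gene name (7) held 0.382% to 0.897% of counts and were left out.

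Counts were tested with edgeR 4.0.16 in R 4.3.3 (TMM, filterByExpr by group, robust quasi-likelihood, one model of 4 groups, 8 residual degrees of freedom). Adjusted p-values are Benjamini-Hochberg over 18886 genes, called under 0.05, and SE is the log2 fold change over the root of F. The code was tested on simulated data. The alternatives were DESeq2 1.42.0, other scalings and filters, a replicate block, fits of the compared groups alone and leaving out each library. The labels call the replicates independent biological replicates.

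Members and gene lists were chosen with earlier results of these data known. Named members were those called, at 1 CPM or more in the higher group, up to 10 each way by size, the 5 highest by mean CPM, and those with no count; other members named with values, among them GSTF3, GSTF5, GSTF8, GSTF11 and GSTF12, were chosen after their values were seen. Companion genes were matched by locus, since the count table lists some under other names (ABCC3 as MRP3, GR2 as GR). Loci and sequences come from RefSeq TAIR10.1.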

Additional observations from a re-analysis of the deposited data

How the results depend on the processing

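Of 37 calls of members, 20 held under every alternative run (17 of 22 for salt in the wild type, GSTU9, GSTU22 and GSTU25 among 9 for salt in the overexpressor, and 0 of 6 between genotypes in salt); over 703 values 597 kept their call, 106 lost it and 0 reversed. For salt in the overexpressor, leaving out 1 library gave 4 to 10 members called (3 to 7 higher, 1 to 3 lower), beside 7.9% to 19.1% of all genes. For salt in the wild type it gave 17 to 23 (14 to 17 higher, 3 to 6 lower), beside 31.1% to 43.9% of all genes. Between genotypes in salt it gave 0 to 7 (0 to 1 higher, 0 to 7 lower), beside 0.237% to 5.34%. For the interaction it gave 0 to 1 (0 to 1 lower), beside 0% to 0.38%. DESeq2 called 11 members between genotypes in salt (1 higher, 10 lower), beside 9.03% of all genes it tested. For the interaction it called 4 (4 lower), beside 3.46%. A fit of the compared groups alone called 0 members between genotypes in salt (0 lower), beside 0.0708% of all genes in that fit. In mock leaves 0 members were called under each alternative, beside 0.0156% to 2.05% of all genes.

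Same-numbered libraries deviated together with a correlation over 0.1 in 17 of 18 pairs (lowest -0.0248, median 0.288), and 10 of 12 libraries correlated best with their own number in every group, so the pairing is a hint from the data and not part of the design. With the replicate block, 14 members were called for salt in the overexpressor (5 lower), 13 between genotypes in salt (2 higher, 11 lower) and 5 for the interaction (5 lower), beside 28.2%, 12.4% and 2.01% of all genes. These 5 were GSTU3, GSTF7, GSTF2, GSTU10 and GSTU12 (adjusted p = 0.0312 to 0.0498), and GSTF7 was then called lower with salt in the overexpressor (-0.76, adjusted p = 0.0288) and higher in the wild type. GSTU4 (1.23, adjusted p = 0.0213), GSTU10 (1.15, 0.0309) and GSTU11 (1.10, 0.0392) were then called higher with salt in the overexpressor. DESeq2 also called GSTU4 higher there (1.37, adjusted p = 0.0239). With the block and the compared groups alone, 10 were called between genotypes in salt (10 lower), beside 3.38% of all genes. For GSTF12 with salt in the overexpressor the log2 fold change was -0.63 with the block and -1.28 with the block and the compared groups alone.

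Signs of members not called with salt in the overexpressor turned when 1 library was left out, with log2 fold changes from -0.01 to 0.27 for GSTF2, -0.06 to 0.25 for GSTF6, -3.22 to 1.24 for GSTF12, -0.66 to 0.17 for GSTU12 and -0.08 to 0.18 for GSTZ1. The cause was not tested. The limits are 3 replicates a group, 1 overexpressing line, shallower OX libraries and the unstated handling of mock leaves.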
